A study of Drosophila melanogaster with 4 samples.

Results

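Expression of the fibroblast growth factor (FGF) signalling genes of Drosophila melanogaster was examined in wing disc-associated myoblasts, the precursors of the adult flight muscle. The set holds 7 genes of the 17494 in the count table, chosen by their symbols: the receptors htl and btl, the ligands ths, pyr and bnl, the adaptor stumps and the feedback inhibitor sty. All 7 symbols were found, and all 7 genes passed the filter on low counts that left 10360 genes for testing.

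Cells were sorted at 0 hours after puparium formation (APF) from animals raised at 29°C, and RNA was sequenced from 2 Antp RNAi libraries (replicates 1 and 2) and 2 control libraries (replicates 2 and 3). Per the genotype labels, both groups carried Mef2-Gal4 and UAS-GFPnls, with UAS-Antp RNAi (a hairpin line of the KK collection, per the study) in the first group and UAS-Y RNAi in the second, whereas the extraction protocol names the GFP::Gma reporter and a wild-type cross. Mef2-Gal4 drives the hairpin in muscle precursors from the third larval instar onwards. Each sample pooled 30 to 35 wing discs, from which about 50000 cells were sorted on viability, size and GFP.

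FGF signalling passes from a secreted ligand to a receptor tyrosine kinase in the membrane of the receiving cell, and from there through an adaptor to the Ras-MAPK cascade. Drosophila has a pair of receptors with largely separate tasks. Heartless (htl), which binds Thisbe (ths) and Pyramus (pyr), acts in mesoderm and muscle precursors, while Breathless (btl), which binds Branchless (bnl), guides the branching of the tracheal airways. Stumps, also called Dof, is the cytoplasmic adaptor that both receptors need, and Sprouty (sty) is an intracellular brake whose transcription is commonly switched on by the signal it restrains.

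The libraries held 42110502 and 46817694 counts in Antp RNAi and 53082579 and 53957914 counts in the control. Antp, the hairpin's target, was at 135 and 144 CPM (the share of a library's counts scaled to 1000000, on library sizes adjusted by the TMM method) in Antp RNAi and at 192 and 172 CPM in the control, and this difference did not pass the threshold (edgeR adjusted p = 0.145). Adjusted p-values named edgeR come from its quasi-likelihood fit over all genes tested, and the threshold is 0.05 where no other is given. The gene y, the target of the control hairpin, had 382 and 365 counts in Antp RNAi and 0 in both control libraries, which allows up to 0.0565 and 0.0551 CPM there. The labelled cell type was checked with 8 myoblast markers, whose summed level was 13165 and 11349 CPM in Antp RNAi and 13523 and 11712 CPM in the control. Log2 fold changes were above 0 for 2 of the 8, against 47.5% of all genes, with a median of -0.21. At an edgeR unadjusted p under 0.05 there were 5, against 11.5% of all genes. Among those 5, zfh1, named after its values were seen, rose (log2 fold change 0.46). The highest of the 8 were Him and E(spl)m6-BFM, and 2 of the 8 fell past 0.05, against 1.22% of all genes. These were Ama and ct, named after their values were seen, with log2 fold changes of -1.42 (edgeR adjusted p = 0.000354) and -0.86 (edgeR adjusted p = 0.00748). The 9 tracheal markers summed to between 60.4 and 77.5 CPM, and the 8 hemocyte markers to between 41.8 and 46.5 CPM, nearly all of it from crq. Of the 5 hemocyte markers tested, 2 had log2 fold changes above 0, against 47.5% of all genes. Past 0.05, 1 of the 5 fell, against 1.22% of all genes. This was NimC1, named after its values were seen, with 1 count in each Antp RNAi library and 44 and 45 counts in the control (edgeR adjusted p = 0.00799). The 4 neuron and glia markers summed to between 23.9 and 30.7 CPM, most of it from elav. In the fat body list Lsp2 and Fbp1 had 0 counts in all 4 libraries, while apolpp was at 26.4 and 12.3 CPM in Antp RNAi and at 0.414 and 0.771 CPM in the control and rose past both thresholds.

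The receptor gene htl and the adaptor gene stumps were abundant in the myoblasts, sty lay near the median gene, and the receptor gene btl and the 3 ligand genes were scarce. To compare genes, CPM were divided by the exon length of each gene in kilobases. On that scale htl had 224 and 210 CPM per kilobase in Antp RNAi and 176 and 184 in the control. The adaptor stumps stood close to it, at 174 and 188 CPM per kilobase in Antp RNAi and 153 and 164 in the control. The ranges of htl and stumps over the 4 libraries overlapped, although htl stood above stumps within each library. The level of stumps per length was 0.778 and 0.898 of that of htl in Antp RNAi, against 0.869 and 0.891 in the control.

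By level per length, htl ranked 259 and 341 among the 10360 genes tested in Antp RNAi and 395 and 370 in the control, and stumps ranked 368 and 391 in Antp RNAi and 485 and 438 in the control. The feedback gene sty came next, at 14.4 and 12.7 CPM per kilobase in Antp RNAi and 12.1 and 11.4 in the control. These values lay near the median of all genes tested, which was 13.7 CPM per kilobase in the control. The second receptor, btl, had 1.41 and 1.22 CPM per kilobase in Antp RNAi and 0.996 and 1.18 in the control. The range of sty over the 4 libraries did not meet those of htl and stumps, nor did that of btl meet that of sty.

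The ligands formed the bottom of the order. The level of bnl was 0.559 and 0.687 CPM per kilobase in Antp RNAi and 0.256 and 0.362 in the control. That of pyr was 0.536 and 0.400 CPM per kilobase in Antp RNAi and 0.480 and 0.240 in the control, a range that overlapped that of bnl. The lowest was ths, at 0.140 and 0.0458 CPM per kilobase in Antp RNAi and 0.0886 and 0.0592 in the control. Within each library, htl per length exceeded the summed level of the 3 ligands 181-fold and 185-fold in Antp RNAi and 213-fold and 278-fold in the control.

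**Figure D1:**
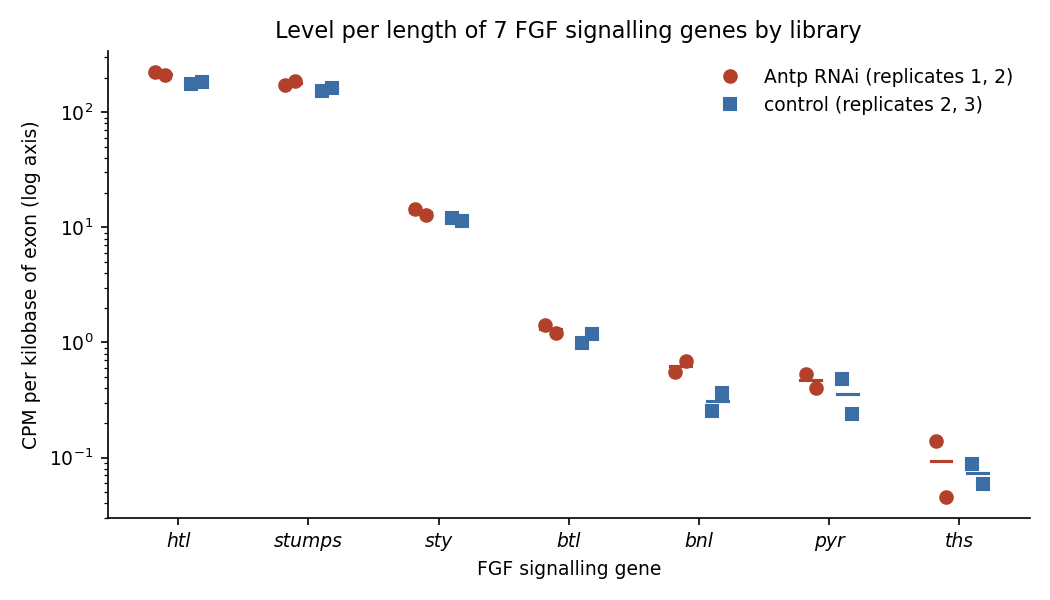
Levels of the 7 FGF signalling genes in CPM per kilobase of exon on a log axis, with Antp RNAi libraries as circles, control libraries as squares and short lines for the mean of each pair. The genes htl and stumps sit between 153 and 224 CPM per kilobase, sty between 11.4 and 14.4, and btl and the 3 ligands at or below 1.41 in every library.

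The gene htl encodes the FGF receptor of the mesoderm and lies on chromosome 3R (FBgn0010389, dm6, 18045216 to 18052984, minus strand). It had 38848 and 39443 counts in Antp RNAi and 38252 and 41030 in the control. In CPM these were 916 and 858 in Antp RNAi and 720 and 753 in the control, so that both Antp RNAi libraries lay above both control libraries. The mean was 887 ± 41.2 CPM in Antp RNAi and 736 ± 23.6 CPM in the control (SD, n = 2 each). On the log2 scale the difference was 0.27 ± 0.10 (SE), which did not pass 0.05 (edgeR adjusted p = 0.298). Its 95% interval ran from 0.04 to 0.49, or up to 1.41-fold, before any adjustment for the number of genes. When Antp RNAi replicate 2 was left out, the difference of htl became 0.33 on the log2 scale and passed (edgeR adjusted p = 0.00565), in a fit where 13% of all genes did.

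The gene btl encodes the FGF receptor of the trachea and lies on chromosome 3L (FBgn0285896, 14075772 to 14083229, plus strand). It had 237 and 222 counts in Antp RNAi and 210 and 254 in the control, or 5.59 and 4.83 CPM in Antp RNAi and 3.95 and 4.66 CPM in the control. The groups did not overlap, although Antp RNAi replicate 2 and control replicate 3 lay close together. The difference of 0.27 ± 0.22 (SE) on the log2 scale did not pass (edgeR adjusted p = 0.767), and its 95% interval ran from 0.848-fold to 1.72-fold.

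Of the reads that fell on either receptor, htl took 99.4% in both Antp RNAi libraries, against 99.5% in control replicate 2 and 99.4% in control replicate 3. The 95% Wilson intervals ran from 99.3% to 99.5% in Antp RNAi replicate 1 and from 99.4% to 99.5% in Antp RNAi replicate 2. They ran from 99.4% to 99.5% in control replicate 2 and from 99.3% to 99.5% in control replicate 3. These intervals cover counting error only, since reads amplified by PCR without molecular identifiers are not independent molecules. Per length, htl exceeded btl 159-fold and 172-fold in Antp RNAi and 177-fold and 157-fold in the control, so the ratio overlapped between the groups. Of the 8 tracheal markers tested, 4 had log2 fold changes above 0, against 47.5% of all genes, and 1, Gasp, fell past 0.05, against 1.22% of all genes. Gasp, which encodes a chitin-binding protein of the tracheal lining and is named after its values were seen, was at 0.566 and 1.70 CPM in Antp RNAi and at 6.003 and 6.957 CPM in the control (edgeR adjusted p = 0.0227). The gene trh, chosen in the same way, encodes a transcription factor that defines tracheal cells, and was at 1.86 and 1.59 CPM in Antp RNAi and at 1.37 and 1.01 CPM in the control (edgeR adjusted p = 0.683). The summed tracheal list was at 72.7 and 60.4 CPM in Antp RNAi and at 72.9 and 77.5 CPM in the control, and the share of tracheal RNA in the btl reads was not tested.

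The ligand genes pyr and ths lie beside each other on chromosome 2R (pyr, FBgn0033649, 11712263 to 11726345 and ths, FBgn0033652, 11756817 to 11814424, both on the plus strand), with 30471 bases and no other gene of the count table between them. Both encode FGF8-like ligands of the Htl receptor. The counts of pyr were 73 and 59 in Antp RNAi and 82 and 42 in the control, or 1.72 and 1.28 CPM in Antp RNAi and 1.54 and 0.771 CPM in the control. Its groups overlapped, and the control libraries differed 2.00-fold from each other, with exact 95% Poisson intervals that did not meet. The log2 fold change of 0.38 had a 95% interval from -0.62 to 1.37 (edgeR adjusted p = 0.851). It became -0.030 when control replicate 3 was left out and 0.98 when control replicate 2 was.

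The counts of ths were 48 and 17 in Antp RNAi and 38 and 26 in the control, or 1.13 and 0.370 CPM in Antp RNAi and 0.715 and 0.477 CPM in the control. The Antp RNAi libraries enclosed both control libraries and differed 3.06-fold from each other, beyond their Poisson intervals. Its log2 fold change was 0.33, with a 95% interval from -1.04 to 1.69 (edgeR adjusted p = 0.916). Leaving out Antp RNAi replicate 1 made it -0.68, and leaving out Antp RNAi replicate 2 made it 0.94. The intervals of pyr and ths leave both a lower and a higher level in Antp RNAi possible.

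The gene bnl, on chromosome 3R (FBgn0014135, 19794073 to 19836817, minus strand), encodes the ligand of Btl and had the largest difference of the 7 genes. It had 108 and 144 counts in Antp RNAi and 62 and 90 in the control, or 2.55 and 3.13 CPM in Antp RNAi and 1.17 and 1.65 CPM in the control. Both Antp RNAi libraries lay above both control libraries, and the Poisson intervals of libraries of one group met. The mean was 2.84 ± 0.414 CPM in Antp RNAi and 1.41 ± 0.343 CPM in the control (SD, n = 2 each). This 2.01-fold difference, 1.01 ± 0.32 (SE) on the log2 scale, did not pass after adjustment (edgeR unadjusted p = 0.0134, adjusted p = 0.211). Its 95% interval ran from 1.21-fold to 3.36-fold before any adjustment for the number of genes.

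Because bnl is a gene of the disc epithelium in the larva, the 10 markers of disc epithelium were read beside it. Their summed level was 720 and 614 CPM in Antp RNAi and 528 and 553 CPM in the control, most of it from ap, ara and caup. The median of the 10 markers was 0.740 CPM per kilobase in the control, against 13.7 over all genes tested. Log2 fold changes were above 0 for 8 of the 10, against 47.5% of all genes. The 2 with the highest level, ap and ara, had log2 fold changes of -0.09 and 0.39 and did not pass. Past 0.05, 2 of the 10 rose, Fas3 and caup, against 1.36% of all genes, and 0 fell. Fas3, a septate junction protein named here after its values were seen, had 16.1 and 12.8 CPM in Antp RNAi and 6.34 and 6.02 CPM in the control, and passed (edgeR adjusted p = 0.0102). The homeobox gene caup, also named after its values were seen, had 190 and 152 CPM in Antp RNAi and 107 and 93.3 CPM in the control (edgeR adjusted p = 0.0241). The part of epithelial RNA in the difference of bnl was not tested. In these bulk samples a change in the number of cells of a type and a change in RNA per cell cannot be told apart.

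**Figure D2:**
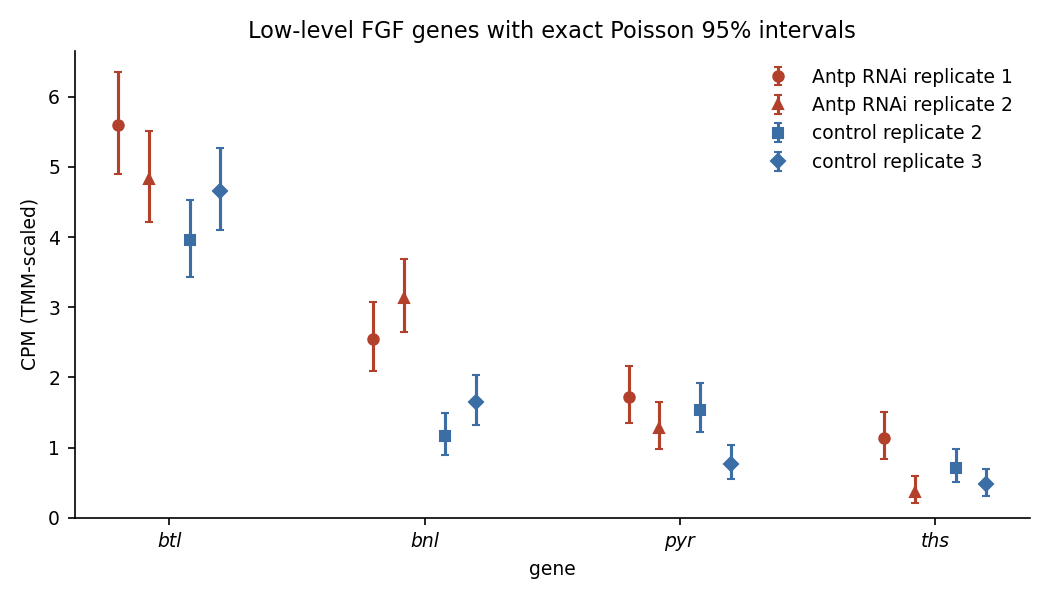
CPM of btl and the 3 ligand genes in each library, with exact 95% Poisson intervals of the counts as bars (counting error only), Antp RNAi in red and control in blue. For bnl, 2.55 and 3.13 CPM in Antp RNAi lie above 1.17 and 1.65 CPM in the control, while the groups of pyr and ths overlap.

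The adaptor gene stumps (FBgn0020299, chromosome 3R, 14577217 to 14608079, plus strand) had 41339 and 48443 counts in Antp RNAi and 45465 and 49977 in the control. In CPM it was at 975 and 1054 in Antp RNAi and at 856 and 917 in the control, again without overlap. The mean was 1014 ± 55.7 CPM in Antp RNAi and 886 ± 43.7 CPM in the control (SD, n = 2 each). The difference was 0.19 ± 0.10 (SE) on the log2 scale and did not pass (edgeR adjusted p = 0.544), with a 95% interval from 0.976-fold to 1.34-fold. Of the fits run, the one that left out Antp RNAi replicate 1 put stumps past 0.05, at 0.25 on the log2 scale (edgeR adjusted p = 0.0395), where 7.03% of all genes passed.

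The feedback gene sty (FBgn0014388, chromosome 3L, 3401153 to 3424935, minus strand) had 3312 and 3184 counts in Antp RNAi and 3486 and 3381 in the control. It was at 78.1 and 69.3 CPM in Antp RNAi and at 65.6 and 62.1 CPM in the control. The groups did not overlap, with a mean of 73.7 ± 6.26 CPM in Antp RNAi and 63.8 ± 2.50 CPM in the control (SD, n = 2 each). The difference of 0.21 ± 0.11 (SE) on the log2 scale did not pass (edgeR adjusted p = 0.581), and its 95% interval ran from 0.966-fold to 1.38-fold. As with htl, it passed when Antp RNAi replicate 2 was left out, at 0.31 on the log2 scale (edgeR adjusted p = 0.0386). Per length, sty stood at 0.0642 and 0.0608 of the level of htl in Antp RNAi and at 0.0686 and 0.0620 in the control, which overlap.

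Across the set, 0 of 7 genes passed an edgeR adjusted p of 0.05 or of 0.001, the study's threshold, against 2.58% and 0.463% of all genes tested. At an unadjusted p under 0.05 there were 2 of 7, htl and bnl, against 11.5% of all genes. DESeq2, limma-voom and edgeR's likelihood ratio test each called 0 of 7 at an adjusted p of 0.05, against 4.51%, 2.6% and 5.62% of all genes, and with each of these 2 of 7 had an unadjusted p under 0.05. With 1 library left out, 1 of 7 (stumps) passed 0.05 without Antp RNAi replicate 1 and 2 of 7 (htl and sty) without Antp RNAi replicate 2, against 7.03% and 13% of all genes. Without control replicate 2 and without control replicate 3 there were 0 of 7, against 2.96% and 2.99% of all genes. All 7 log2 fold changes were above 0, as were those of 47.5% of all genes, and their median was 0.27 against -0.01 over all genes tested. In 5 of the 7 genes both Antp RNAi libraries lay above both control libraries, which held for 18.6% of all genes. The members share the same 4 libraries, so these counts are a description, and no test was made of them.

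**Figure D3:**
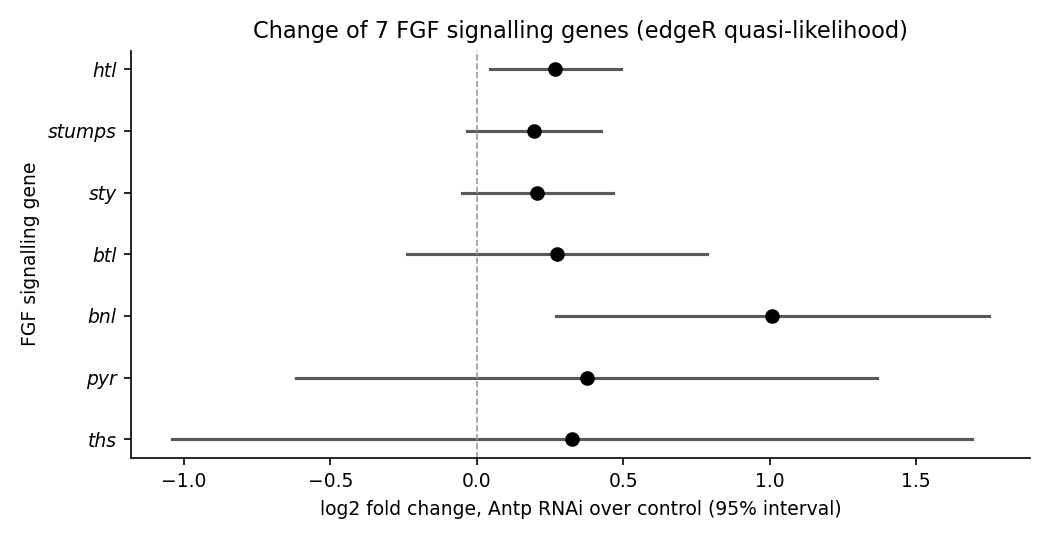
Difference between Antp RNAi and control on the log2 scale (Antp RNAi over control) for the 7 FGF signalling genes (points) with 95% intervals from edgeR's quasi-likelihood fit (lines), unadjusted for the number of genes. The intervals of htl and bnl lie above 0 and those of the other 5 genes include 0, and none of the 7 passed an adjusted p of 0.05.

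Other genes of the pathway were read from 4 lists drawn up by role. The Ras-MAPK relay list held 14 genes, with drk, Sos, csw, Ras85D, Raf, Dsor1 and the ERK kinase rl among them. Of these, 0 passed an edgeR adjusted p of 0.05, against 2.58% of all genes. At an unadjusted p under 0.05 there were 0, against 11.5% of all genes. DESeq2, limma-voom and the likelihood ratio test called 0 as well, against 4.51%, 2.6% and 5.62% of all genes. The log2 fold changes of the relay list ran from -0.16 to 0.20 with a median of 0.04. The highest levels per length were those of 14-3-3epsilon and 14-3-3zeta, which encode adaptor proteins that bind phosphorylated Raf. In 14-3-3epsilon, CPM were 2201 and 2599 in Antp RNAi and 2485 and 2515 in the control, so that the groups overlapped, and 14-3-3zeta, at 1442 and 1758 CPM in Antp RNAi and 1726 and 1720 CPM in the control, overlapped too.

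Among 9 genes that restrain receptor tyrosine kinase signalling, 0 passed an edgeR adjusted p of 0.05, against 2.58% of all genes. At an unadjusted p under 0.05 there was 1, RasGAP1, against 11.5% of all genes. RasGAP1 speeds the return of Ras to its inactive form. It was at 301 and 297 CPM in Antp RNAi and at 204 and 245 CPM in the control, a difference of 0.42 ± 0.12 (SE) on the log2 scale (edgeR adjusted p = 0.141). DESeq2 and the likelihood ratio test each called it at 0.05, against 4.51% and 5.62% of all genes. With limma-voom 0 of the 9 were called, against 2.6% of all genes. The other brake named for its level, vap, a GTPase-activating protein for Ras, had 379 and 328 CPM in Antp RNAi and 331 and 353 CPM in the control.

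Of 8 nuclear factors that respond to MAPK, 0 passed an edgeR adjusted p of 0.05, 1 had an unadjusted p under 0.05, and DESeq2, limma-voom and the likelihood ratio test called 0. Over all genes the edgeR shares were 2.58% at the adjusted and 11.5% at the unadjusted threshold. With DESeq2, limma-voom and the likelihood ratio test the adjusted shares were 4.51%, 2.6% and 5.62%. Their median log2 fold change was 0.19, with 7 of the 8 above 0, against 47.5% of all genes. The repressor gene aop, whose product is exported from the nucleus upon MAPK phosphorylation, had 556 and 408 CPM in Antp RNAi and 438 and 413 CPM in the control. The gene edl, whose product antagonises Aop, had 131 and 94.7 CPM in Antp RNAi and 102 and 74.3 CPM in the control. In both genes the groups overlapped. The single factor under an unadjusted 0.05 was cic, a repressor relieved by MAPK and named here after its values were seen, at 432 and 437 CPM in Antp RNAi and 352 and 347 CPM in the control (edgeR adjusted p = 0.184).

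Heparan sulfate chains on cell surface and matrix proteins are co-receptors for FGF ligands. The list held 20 genes for their synthesis, their modification and their core proteins. Of these, 1 rose past an edgeR adjusted p of 0.05, against 1.36% of all genes in that direction, and 0 fell, against 1.22% of all genes. The one that rose was trol, which encodes perlecan, a large heparan sulfate proteoglycan of basement membranes. It was at 2416 and 2091 CPM in Antp RNAi and at 1577 and 1487 CPM in the control, with no overlap. The difference of trol was 0.56 ± 0.11 (SE) on the log2 scale (edgeR adjusted p = 0.0325) and did not reach 0.001 in this fit. With DESeq2 the difference of trol was 0.57 and passed 0.001 (adjusted p = 0.00013), as did 239 of all genes tested. At 0.001 the likelihood ratio test called 2 of the 20 genes, against 287 of all 10360 genes tested. At that threshold limma-voom called 0 of the 20, against 33 of all genes tested. In edgeR the difference of trol was 0.62 when control replicate 2 was left out and 0.52 when control replicate 3 was. Dropping Antp RNAi replicate 1 made it 0.45, and dropping replicate 2 of that group made it 0.68. With either control library left out trol did not pass 0.05, and with either Antp RNAi library left out it did.

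The median log2 fold change of the heparan sulfate list was 0.03. Sdc, which encodes the transmembrane core protein syndecan, had 287 and 281 CPM in Antp RNAi and 283 and 276 CPM in the control. Hs3st-A, a heparan sulfate 3-O-sulfotransferase named here after its values were seen, had 6 and 4 counts in Antp RNAi and 54 and 35 in the control. Its log2 fold change of -2.84 ± 0.60 (SE) stood just outside the threshold (edgeR adjusted p = 0.0512). It passed with DESeq2 (adjusted p = 0.0470, where 4.51% of all genes passed). In edgeR with library totals as scaling it passed too (adjusted p = 0.0453, where 2.76% of all genes passed). The likelihood ratio test (5.62% of all genes) and the fit without a filter also called it. With limma-voom (2.6% of all genes), median-of-ratios scaling or upper-quartile scaling it did not pass.

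**Figure D4:**
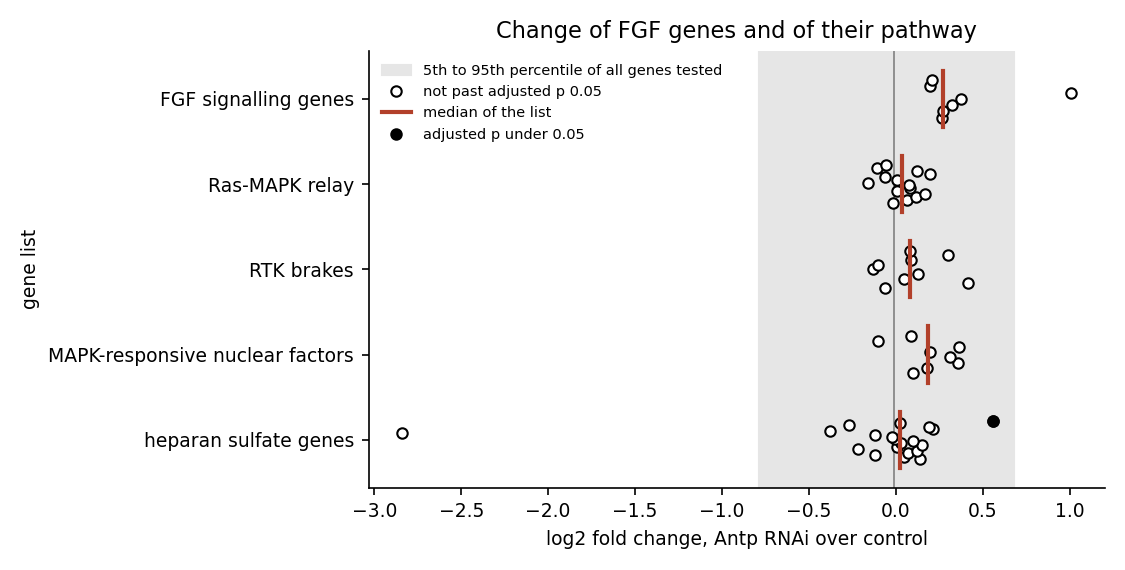
Difference on the log2 scale (Antp RNAi over control) for the 7 FGF signalling genes and 4 lists of pathway genes, with 1 circle per gene, filled where the adjusted p is under 0.05, red bars for list medians and a grey band from the 5th to the 95th percentile of all 10360 genes tested. Medians of the lists lie between 0.03 and 0.27, the single filled circle is trol at 0.56, and the circle at -2.84 is Hs3st-A.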

How the data were processed

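The authors deposited whole-number counts of reads per gene over its exons for 4 libraries, made from SMART-Seq cDNA, without normalization. The submitters' processing notes name bcl2fastq 2.17.1.14, Subread, featureCounts, DESeq2 1.34 and the dm6 build. Strand use and handling of multiply assigned reads are not given in the sources used here. The other listed column of that table, the exon length per gene, was deposited by the authors as well. A second deposited table holds the authors' own DESeq2 comparison, with a signal column (mean normalized count), log2 columns (fold change and standard error), a Wald score and p-value columns. Gene symbols were taken from it and its values were not used.

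Counts were tested with edgeR 4.0.16 (quasi-likelihood, two-sided) after filterByExpr (minimum count 10) and TMM scaling, with Benjamini-Hochberg adjustment over 10360 genes. The standard error is the log2 fold change divided by the square root of F. The study's threshold is an adjusted p of 0.001, and 0.05 was used beside it. Alternatives were run with limma 3.58.1, DESeq2 1.42.0, other scalings, filters and each library left out. The scripts were tested on simulated data. Members and lists were chosen with earlier results of these data known. From pathway lists, the naming rule gave the genes past 0.05 and the 2 with the highest level per length. From marker lists it gave the 2 with the highest level and those at 0 counts. Of these marker genes, tyn, verm, srp, Lsp1beta and nSyb are not described here. Other list genes are said to be named after their values were seen. In the relay list 1 gene was not analysed here. The labels describe independent biological triplicates and the study's methods describe technical replicates of 1 biological sample, so p-values cover the spread between these libraries only. Further replicates were not analysed here. A check on btl is not reported here.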

Additional observations from a re-analysis of the deposited data

How the results depend on the processing

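No paired analysis was possible because only replicate number 2 occurs in both groups. Over 8 settings of scaling, filter and test (7 for pyr and ths, which the filter at a mean of 100 counts removed), all 7 FGF signalling genes kept their direction and none passed 0.05. Across the 4 fits that each left out a library, in which the lone library of a group is assumed to vary like the other group, 0 to 2 of the 7 passed 0.05, log2 fold changes of ths ran from -0.68 (without Antp RNAi replicate 1) to 0.94 and those of pyr from -0.030 (without control replicate 3) to 0.98. That of bnl ran from 0.80 to 1.29. The number of all genes called at 0.001, 48, became 239 with DESeq2, 287 with the likelihood ratio test and 120 without a filter, and it was 267 at 0.05 and 153 to 228 with a library left out. Without a library, 0 to 3 relay genes, 0 to 3 brakes, 0 to 4 nuclear factors and 0 to 4 heparan sulfate genes passed 0.05, where 7.03% (without Antp RNAi replicate 1), 13% (without Antp RNAi replicate 2), 2.96% (without control replicate 2) and 2.99% (without control replicate 3) of all genes did. The highest counts of relay genes, brakes and nuclear factors came from the fit with 13%. With DESeq2 or the likelihood ratio test, 1 brake and 2 heparan sulfate genes passed, against 4.51% and 5.62% of all genes. With library totals (2.76% of all genes) or no filter, 2 heparan sulfate genes did. At an adjusted p of 0.001 the main edgeR fit called none of either list (0 genes). At that threshold DESeq2 called 1 heparan sulfate gene and the likelihood ratio test 2, against 239 and 287 of all genes tested. The cause was not tested. The ligand genes had 17 to 144 counts per library. The Poisson intervals of the libraries of ths in Antp RNAi and of pyr in the control did not meet. Such intervals take reads as independent molecules, which reads amplified by PCR are not.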

Other observations

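For each FGF signalling gene the gene with the most similar log2 CPM over the 4 libraries was sought, by Euclidean distance among the 10360 genes tested. The distance, in log2 units, was 0.0762 between stumps and otk, 0.0861 between sty and rasp, 0.152 between htl and Not1, 0.185 between pyr and Nep7, and 0.191 between btl and CG30054. For bnl and ths the nearest genes, CG43646 and Mst36Fb, stood at 0.362 and 0.473. These values describe likeness in 4 libraries, and 25 genes lay within 0.2 of sty and 8 within 0.2 of stumps.

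Of all reads on ths, pyr and bnl, bnl took 47.2% (95% Wilson interval 40.8% to 53.6%) of 229 in Antp RNAi replicate 1 and 65.5% (59.0% to 71.4%) of 220 in Antp RNAi replicate 2. In the control it took 34.1% (27.6% to 41.2%) of 182 in replicate 2 and 57.0% (49.2% to 64.4%) of 158 in replicate 3. These intervals cover counting error only, and the shares overlapped between the groups.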
